A study of Mus musculus with 4 samples.

Results

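Wide H1foo domains are the peaks of the H1foo ChIP-seq list that lie on chromosomes 1 to 19 of the mouse and measure at least 2000 bp from start to end. There were 1339 of them among 97617 autosomal H1foo peaks, or 1.37%, and with 3.64 Mb they made up 5.56% of the bases under those peaks. They were chosen by their measured width, so their width and the peak score that goes with it are given as descriptions. The cells were embryonic stem cells of the mouse strain 129S4/SvJae, and all of them overexpressed H1foo fused to GFP, in the H1foo and the AE4 libraries alike. Chromatin was precipitated with a rabbit polyclonal antibody against H1foo made in-house (2 libraries) or with the mouse monoclonal AE4, used for somatic H1 (2 libraries). The data are 1 peak list per antibody in mm10 coordinates, with no value per library, so there is no replicate error and no test, and the depth of the libraries is unknown. Unmodified cells without the fusion protein are not analysed here, and the peak lists hold nothing by which the stem cell identity could be checked.

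Linker histones bind the nucleosome where DNA enters and leaves it, and they help to fold chromatin. The mouse has somatic variants, found in most cells, and H1foo, the variant of the oocyte and the early embryo. A peak marks a stretch in which a caller found more reads than its background model, and a wide peak can be a long bound stretch or several neighbouring ones that the caller did not separate. Nothing in the sources used here says if AE4 recognises H1foo too, so an AE4 peak inside an H1foo domain is not read as a second protein.

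Some of the widest domains cover a start site of a gene. The promoter sequences below are shown because they differ in their content of the dinucleotide CG, which is printed in capitals. Each is 300 bp of RefSeq sequence on GRCm38.p6, whose coordinates are those of mm10, running 5′ to 3′ along the gene from 250 bases before a start site to 50 after it. The Mast3 window, chr8:70792384-70792683 on the minus strand, belongs to a microtubule-associated kinase gene and lies in an 8533 bp domain. The Bcar1 window, chr8:111732087-111732386 on the minus strand, belongs to a focal adhesion adaptor gene and lies in a 5851 bp domain. They hold 26 and 30 CG. Both windows belong to start sites inside the span of the gene, and both domains had their centre more than 2 kb from its boundaries.
Mast3: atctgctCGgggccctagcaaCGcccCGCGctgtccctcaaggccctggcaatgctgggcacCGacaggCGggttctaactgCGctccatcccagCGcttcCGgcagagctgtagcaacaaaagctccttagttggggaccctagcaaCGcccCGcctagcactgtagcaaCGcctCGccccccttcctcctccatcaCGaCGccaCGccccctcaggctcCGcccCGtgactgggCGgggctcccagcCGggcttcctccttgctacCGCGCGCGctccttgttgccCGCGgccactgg
Bcar1: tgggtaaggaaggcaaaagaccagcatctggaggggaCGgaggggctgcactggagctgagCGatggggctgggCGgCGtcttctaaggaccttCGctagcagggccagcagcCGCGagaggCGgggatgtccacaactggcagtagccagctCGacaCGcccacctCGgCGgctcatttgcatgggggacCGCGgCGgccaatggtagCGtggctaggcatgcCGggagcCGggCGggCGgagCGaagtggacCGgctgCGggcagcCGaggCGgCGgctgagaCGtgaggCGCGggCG
The next 4 windows hold 3 to 6 CG. C130050O18Rik is at chr5:139405034-139405333 (plus strand, 6197 bp domain). Igfals, for a serum protein that holds insulin-like growth factors in their complex, is at chr17:24877594-24877893 (plus strand, 3955 bp domain). Dnmt3l, for the partner of the enzymes that methylate DNA de novo, is at chr10:78042037-78042336 (plus strand, 3229 bp domain). Duxf3, for a double homeobox factor of the 2-cell stage, is at chr10:58233040-58233339 (minus strand, 3479 bp domain), in a family with near-identical copies, among which reads cannot be placed with certainty.
C130050O18Rik: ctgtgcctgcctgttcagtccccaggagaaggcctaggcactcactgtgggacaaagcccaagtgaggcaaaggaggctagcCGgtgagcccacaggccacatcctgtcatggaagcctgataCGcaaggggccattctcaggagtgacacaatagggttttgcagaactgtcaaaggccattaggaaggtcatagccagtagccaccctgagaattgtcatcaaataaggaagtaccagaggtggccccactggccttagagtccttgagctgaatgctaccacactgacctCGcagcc
Igfals: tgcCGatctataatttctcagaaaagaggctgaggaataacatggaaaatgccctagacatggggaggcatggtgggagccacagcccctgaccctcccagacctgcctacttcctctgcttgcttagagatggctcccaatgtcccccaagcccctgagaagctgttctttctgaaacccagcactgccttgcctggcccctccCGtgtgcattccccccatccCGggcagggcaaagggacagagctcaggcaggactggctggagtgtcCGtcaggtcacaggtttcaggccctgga
Dnmt3l: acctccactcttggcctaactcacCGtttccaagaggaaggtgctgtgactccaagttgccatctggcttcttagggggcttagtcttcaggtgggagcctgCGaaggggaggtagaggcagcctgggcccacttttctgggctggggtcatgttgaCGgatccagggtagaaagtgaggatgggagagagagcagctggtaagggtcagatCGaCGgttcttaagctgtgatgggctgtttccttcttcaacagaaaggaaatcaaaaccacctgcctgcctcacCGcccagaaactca
Duxf3: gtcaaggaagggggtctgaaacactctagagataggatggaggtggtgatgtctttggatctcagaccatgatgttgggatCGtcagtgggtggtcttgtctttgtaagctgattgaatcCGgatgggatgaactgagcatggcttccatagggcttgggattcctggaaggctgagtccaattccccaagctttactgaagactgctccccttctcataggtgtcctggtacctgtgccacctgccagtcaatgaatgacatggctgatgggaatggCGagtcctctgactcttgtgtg

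The 88 promoter windows that lay wholly under a wide domain had a median of 6 CG, against 8 for the 872 wholly under another H1foo peak. The 17216 windows with no H1foo peak had a median of 14. The dinucleotide reads the same on both strands, and 95.6% of all 20085 promoter windows in the table hold at least 1. At least 15 CG were present in 19.3% of the windows under wide domains, in 26.3% of those under other H1foo peaks and in 48.1% of all windows. Median GC content was 57.8% under wide domains, 57.3% under other H1foo peaks and 57.0% over all, so the windows under wide domains were poor in CG rather than in G and C. Mast3 and Bcar1 are thus among the CG-rich minority, and C130050O18Rik, Igfals, Dnmt3l and Duxf3 are nearer to the median of the 88. AE4 peaks touched 42 of the 88 windows (47.7%), against 16.7% of the windows wholly under other H1foo peaks and 2.49% of all windows. The middle 200 bp of wide domains met an AE4 peak in 58.8%, so these windows did not stand above wide domains at large. Dnmt3l shares its domain with the start of Aire, a gene needed for immune tolerance in the thymus, whose window holds 16 CG. Of the windows printed, those of Dnmt3l and Duxf3 lay wholly under AE4 peaks and that of Bcar1 for 174 bases, while those of Mast3, C130050O18Rik and Igfals had no AE4 base.

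Hairpins of microRNAs, the short RNAs that pair with messenger RNAs through their seed, also lay under wide domains. Under one lay 22 of 1136 annotated miRNA genes (1.94%), beside 216 under an H1foo peak of any width. The sequence table held 19 of the 22, and these 19 lay under 16 wide domains. The domain chr8:84207225-84209597 (2373 bp, score 422, no AE4 peak, no host gene) held Mir23a, Mir27a and Mir24-2, which are transcribed together, with Mir3074-2 antisense to Mir24-2. Their main mature products are shown because they lie in 1 domain and yet differ in their seeds, bases 2 to 8, in capitals (RefSeq, GRCm38.p6, 5′ to 3′, plus strand).
mmu-miR-23a-3p, chr8:84208563-84208583: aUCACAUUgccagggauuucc
mmu-miR-27a-3p, chr8:84208727-84208747: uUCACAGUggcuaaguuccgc
mmu-miR-24-3p, chr8:84208875-84208896: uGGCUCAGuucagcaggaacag
Other miRNAs lay inside host genes. Mir33 was in Srebf2, the gene of a regulator of cholesterol synthesis (2191 bp, 1 AE4 peak), and Mir26b in Ctdsp1 (3643 bp, 1 AE4 peak). Mir339 was in 3110082I17Rik (5228 bp, 3 AE4 peaks) and Mir135a-1 in Glyctk (2789 bp, 2 AE4 peaks).
mmu-miR-33-5p, chr15:82198127-82198147, plus strand: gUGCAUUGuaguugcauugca
mmu-miR-26b-5p, chr1:74394324-74394344, plus strand: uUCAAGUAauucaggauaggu
mmu-miR-339-5p, chr5:139369708-139369730, minus strand: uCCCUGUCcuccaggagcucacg
mmu-miR-135a-5p, chr9:106154140-106154162, plus strand: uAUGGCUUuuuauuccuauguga
No seed was shared by any 2 of the 36 mature sequences under wide domains. No like figure is given for other miRNAs, so this is a count only.

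The median width of wide domains was 2451 bp (lower and upper quartile 2183 and 2922 bp) and of the other autosomal H1foo peaks 556 bp. The widest, chr8:120492246-120502132, measured 9887 bp and lay inside Gse1. Width went with the peak score, which is the value the authors' caller gave each peak, has a lowest value of 50 and no named scale. The median score was 385 for wide domains and 72.7 for other H1foo peaks, and 93 of the 100 highest-scoring autosomal peaks were wide domains. Only 16 wide domains scored under 100, of which 12 lay on chromosome 8. The domains just inside the threshold measured 2000 bp (in Arhgap1), 2001 bp (at Ndufa13 and Yjefn3, in Sppl2b, and at Cabp4 and Gpr152) and 2002 bp (at Gcdh), with scores of 208 to 346. Just outside it were 2 peaks of 1999 bp and 3 of 1998 bp, with scores of 277 to 379, so scores on the 2 sides of the threshold overlap.

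After Gse1 the widest domains lay at genes of many kinds. The Mast3 domain of 8533 bp (score 1323) was the next, followed by chr6:114550760-114559077 with 8318 bp, which has no coding gene within 2 kb and the highest score of the list, 2839. Tcf25 had a domain of 7029 bp, the splicing gene Lsm4 one of 6875 bp, and the amino acid transporter gene Slc7a5 one of 6747 bp. A domain of 6725 bp held a boundary of Comp, for a cartilage matrix protein, and the end of its neighbour Crtc1, for a coactivator of CREB. A domain of 6214 bp on chromosome 5 held the ends of both Mafk, for a small Maf transcription factor, and Tmem184a. The remaining domains among the 20 widest measured 5555 to 6914 bp and included those in Carmil2, Nfix, Piezo1, Sfi1, Pde4c and, a further 2 times, Gse1. Of these 20, 14 lay on chromosome 8, 13 had their centre inside a gene more than 2 kb from its boundary, and each overlapped at least 1 AE4 peak.

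Chromosome 8 held 550 wide domains, or 41.1% of them, while it held 10.7% of all autosomal H1foo peaks. That is 4.25 wide domains per Mb, against 0.338 per Mb over the other autosomes. Of its H1foo peaks 5.24% were wide, against 0.906% elsewhere. Chromosome 11 followed with 123 domains, chromosome 4 with 93, chromosome 10 with 85 and chromosome 5 with 81. Chromosome 13 had 6, and chromosomes 14 and 18 had 5 each. By share of its own H1foo peaks that were wide, chromosome 10 came second with 1.90%.

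**Figure D1:**
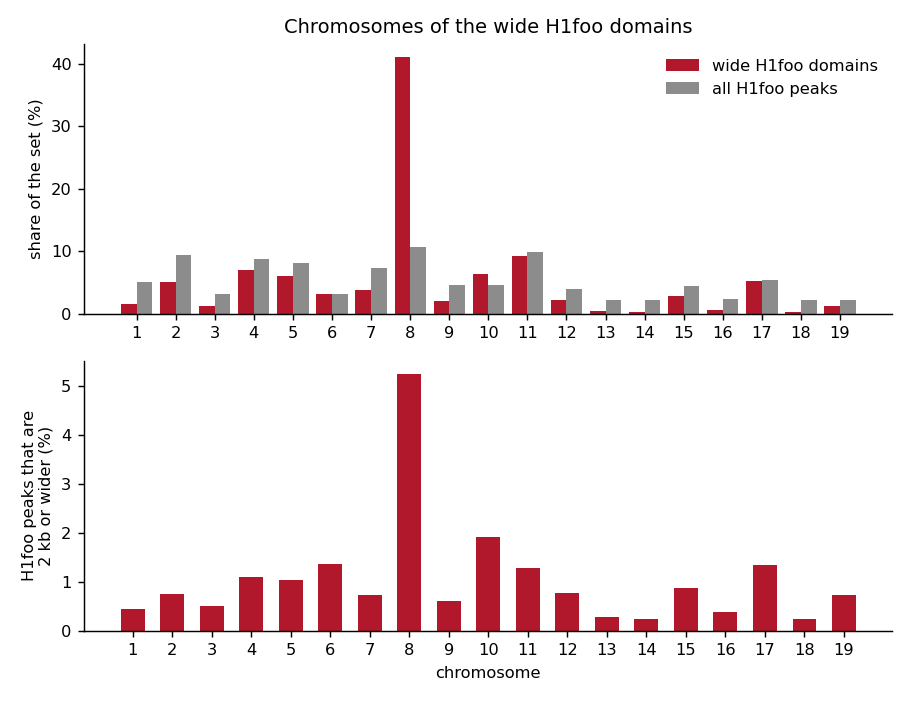
Upper panel, share in percent of the 1339 wide H1foo domains (red) and of all 97617 autosomal H1foo peaks (grey) on each autosome. Lower panel, percent of each chromosome's H1foo peaks that are 2 kb or wider. Chromosome 8 stands at 41.1% of the wide domains against 10.7% of all peaks, and its 5.24% in the lower panel compares with 1.90% on chromosome 10, the next.

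The whole width distribution of chromosome 8 was shifted, and in both lists. The median width of all its H1foo peaks was 690 bp, against 548 bp on the other autosomes, and the median score was 84.5 against 72.1. For AE4 peaks the medians were 596 bp on chromosome 8 and 452 bp elsewhere, and 164 of the 241 autosomal AE4 peaks of 2000 bp or more lay there. Among H1foo peaks with scores of 300 to 500 the share of wide ones was 54.9% on chromosome 8 and 48.3% elsewhere, and at 500 or more it was 98.9% and 85.9%. Among scores of 100 to 200 it was 1.39% and 0.148%, and among 200 to 300 it was 14.0% and 6.49%. In each of these score classes the share was higher on chromosome 8. By the number of H1foo peaks in a 1 Mb bin, the share of wide ones on chromosome 8 and elsewhere was 3.77% and 0.197% below 50 peaks, and 0.674% and 0.315% from 50 to 99. It was 2.13% and 0.802% from 100 to 199, 5.27% and 1.57% from 200 to 299, and 9.57% and 2.47% from 300 on. On chromosome 8, 23 of the 34 domains in the sparsest bins lay in a single bin. What sets chromosome 8 apart in these cells was not tested.

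Wide domains lay in a minority of bins. Of 2470 autosomal bins of 1 Mb, 303 held a wide domain and 2116 held an H1foo peak. The 1339 domains are far fewer than the 97617 H1foo peaks, so these bin counts cannot be compared. For wide domains 26 bins were enough to hold 50% of them, and no like figure is given for H1foo peaks. The 10 fullest bins held 410 domains, or 30.6% of the wide domains and 3.72% of all H1foo peaks, and 9 of them were on chromosome 8. The fullest, 70 to 71 Mb of chromosome 8, held 77 domains and 53 genes, and the next, 120 to 121 Mb, held 64 domains and 11 genes. The exception to chromosome 8 was 139 to 140 Mb of chromosome 5 with 40. Wide domains had a median of 24 protein-coding genes in the 1 Mb window around them, against 16 for other H1foo peaks. On chromosome 8 the medians were 24 and 15.

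When domains separated by at most 50 kb were joined, 108 clusters of 3 or more emerged, with 796 domains or 59.4% of all. Another 92 groups were pairs, and 359 domains stood alone. No clustered share is given for other H1foo peaks, so the 59.4% has no like value beside it. The median distance to the nearest other domain was 9.21 kb over all domains, 2.72 kb on chromosome 8 and 27.2 kb on the other autosomes. At 271 domains the next one lay within 1 kb, and the smallest gap was 1 bp, so domains listed apart can lie side by side. On chromosome 8, 86.0% of the domains lay in clusters of 3 or more, against 40.9% elsewhere. The 16 clusters of 10 or more, 11 of them on chromosome 8, held 398 domains.

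The cluster with the most domains, chr8:70276160-70913584, had 71 domains at 31 genes, from Cope to Map1s. It includes the genes for the growth factor Gdf1, for Comp, for the transcription factor Jund, for the synaptic vesicle GTPase Rab3a, for the potassium channel Kcnn1 and for the iodide transporter Slc5a5. Wide domains covered 35.0% of its 637 kb, all H1foo peaks 68.6% and AE4 peaks 38.5%. The second, chr8:120219641-120718690, had 62 domains over 499 kb at only 6 genes, 1 of which is Gse1. The third, chr8:121552078-121991093, had 28 domains around Jph3, Slc7a5 and Banp. On chromosome 5, chr5:139262322-139480710 held 24 domains around Adap1, the orphan receptor gene Gpr146 and 3110082I17Rik.

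On chromosome 6 the cluster chr6:114498455-114637797 was the only one of the 10 largest with no coding gene within 2 kb of any of its 23 domains. Domains covered 56.1% of its 139 kb, all H1foo peaks 90.4% and AE4 peaks 76.1%, and the median score of its domains was 989.9. All 23 overlapped an AE4 peak. The remaining clusters among the 10 largest lay on chromosome 8, with 21 to 24 domains each. They run from Mlycd to Wfdc1, from Abhd8 to Fcho1 (with the kinase gene Jak3), from Il27ra to Ccdc130 (with Rfx1 and Nanos3), from Cyba to Cbfa2t3 (with Piezo1) and from Cacna1a through Nfix. Outside these, chr17:6420638-6523365 had 13 domains in 103 kb. Of these 13, 8 had no coding gene within 2 kb, and 3 of the 8 lay on the pseudogene Tmem181b-ps. Between 69 and 74 Mb of chromosome 8 lay 117 wide domains in all, and between 79 and 82 Mb of chromosome 10 lay 49.

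**Figure D2:**
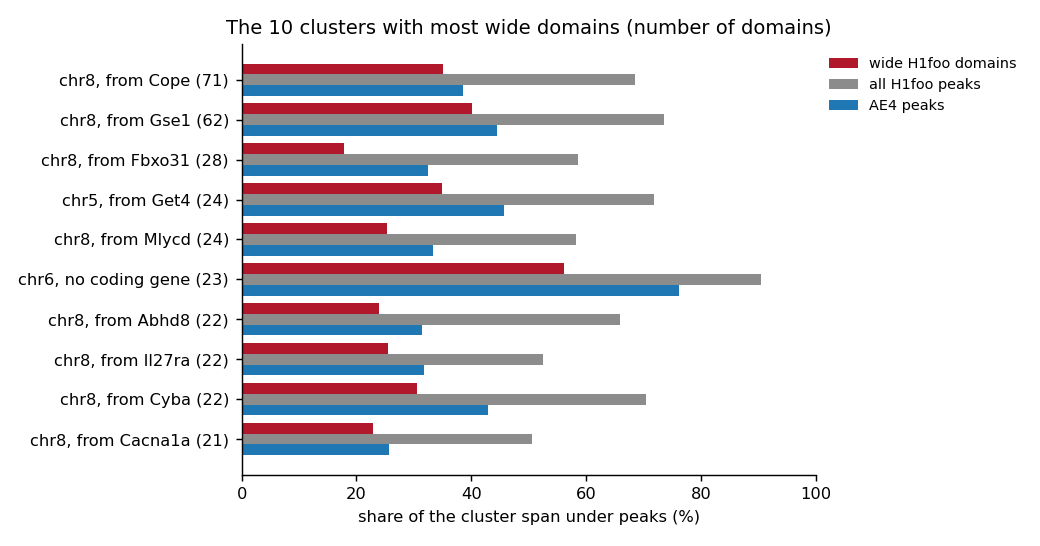
Share in percent of the span of each of the 10 clusters with most wide domains that lies under wide H1foo domains (red), all H1foo peaks (grey) and AE4 peaks (blue), with the first gene of the cluster and the number of domains. The cluster on chromosome 6 has the highest share of all 3, at 56.1%, 90.4% and 76.1%.

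Gse1, which encodes a coiled-coil protein found with histone deacetylase complexes, was the gene with the most wide domains. It had 53, of which 52 lay in its span of chr8:120228501-120581383, and they covered 48.4% of its 353 kb. In that span were 160 H1foo peaks and 176 AE4 peaks in all. Domain widths inside it ran from 2018 to 9887 bp with a median of 2735 bp, and scores ran from 144 to 2171 with a median of 495. Along its plus strand, 4 equal parts of the gene held 9, 20, 10 and 13 domains, with median widths of 2491, 2415, 3717 and 3215 bp. The domains thus ran through the gene with their greatest number in the second part and their greatest median width in the third. The first began 4.94 kb from the start of the span and the last ended 349 kb from it. The 3 start sites in the promoter table lie 260, 307 and 309 kb from the start of the span. Positions here are thus along the RefSeq span and not distances from those sites. AE4 peaks overlapped 52 of the 53, and the exception was a domain of 2282 bp at chr8:120340763-120343044. Across the 52 in the span the median share of bases under AE4 peaks was 68.2%, and 34 had 2 or more AE4 peaks.

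**Figure D3:**
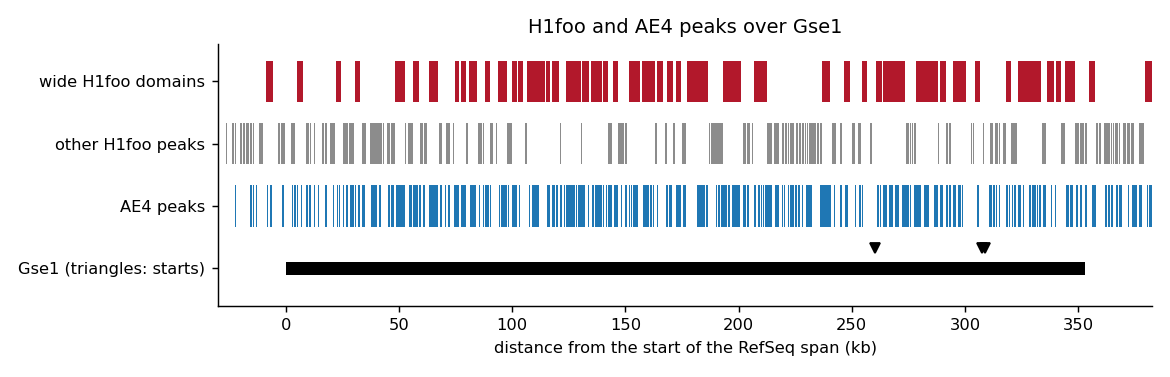
Wide H1foo domains (red), other H1foo peaks (grey) and AE4 peaks (blue) across Gse1 and the 30 kb on either side, against the distance in kb from the start of its RefSeq span (black bar, transcribed left to right); triangles mark the start sites in the promoter table. The 52 domains in the gene run through most of it, with AE4 peaks over all but 1 of them.

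AE4 peaks overlapped 1106 of the 1339 wide domains by at least 1 bp, or 82.6% (exact 95% binomial interval 80.5 to 84.6%, for counting error only). Of the other autosomal H1foo peaks 22408 of 96278 did, or 23.3%, and of all 24.1%. A long peak meets more AE4 peaks by its length alone, so 3 measures that allow for it follow. In the middle 200 bp, an AE4 peak was present in 787 wide domains (58.8%), against 20.8% of the other H1foo peaks and 21.3% of all. AE4 peaks covered 47.5% of the bases of wide domains, against 18.4% for other H1foo peaks. Per kb there were 0.505 AE4 peaks on wide domains and 0.381 on other H1foo peaks. All 3 were higher on wide domains, and the number of AE4 peaks per kb differed less than the covered share did.

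The share of H1foo peaks with an AE4 peak went up with each width class, and the 2 kb threshold stands within that gradient. It was 13.3% below 500 bp, 25.4% at 500 to 999 bp, 45.5% at 1000 to 1499 bp and 63.4% from 1500 bp to the threshold. Above the threshold it was 75.9% up to 2500 bp, 85.8% at 2500 to 2999 bp, 95.5% at 3000 to 3999 bp and 96.0% from 4000 bp on. In the middle 200 bp it went from 12.6% in the narrowest class to 75.2% in the widest, and the share of bases under AE4 from 11.1% to 63.0%. Median H1foo scores went up over the same classes, from 58.5 to 780.1, and the overlap was not split by width within a score class.

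**Figure D4:**
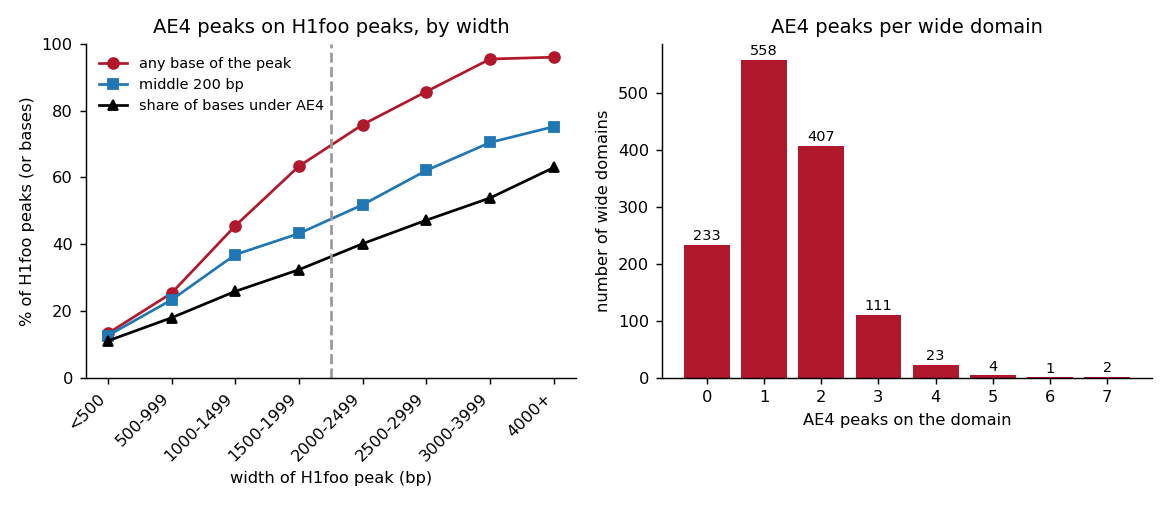
Left, percent of autosomal H1foo peaks in each width class (bp) with an AE4 peak anywhere (red circles) or in their middle 200 bp (blue squares), and percent of their bases under AE4 peaks (black triangles); the dashed line marks 2 kb. Right, number of wide domains with each number of AE4 peaks, from 233 with 0 to 2 with 7.

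By number of AE4 peaks, 233 wide domains had 0, 558 had 1, 407 had 2, 111 had 3, 23 had 4, 4 had 5, 1 had 6 and 2 had 7. Median widths were 2261 bp at 0, 2373 bp at 1, 2554 bp at 2, 3148 bp at 3 and 4109 bp at 4. The 2 with 7 were the 9887 bp domain in Gse1 and the 8318 bp domain of the chromosome 6 cluster, and the domain with 6 was chr6:114578915-114583381 in that cluster. Domains with 5 lay in Gse1, Slc7a5, the same cluster on chromosome 6, and Necap2, an endocytosis gene, where they were packed into 3280 bp. The shortest domain with 4 AE4 peaks measured 2575 bp and held the end of Tent5b. Others with 4 were in Adap1 and the adaptor gene Dok4, at Fhod1, for a formin of the actin skeleton, at Ripor1 and in Ranbp10. Along the domain, the 5 equal parts took 17.3, 21.6, 22.1, 23.2 and 15.7% of the 1747 AE4 centres inside domains, so the outer parts held fewest.

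The 1823 AE4 peaks on wide domains were 3.86% of autosomal AE4 peaks. Their median width was 805 bp and their median score in the AE4 list 98.7, compared with 523 bp and 70.7 for the AE4 peaks on other H1foo peaks alone. AE4 peaks with no H1foo overlap had 421 bp and 59.3. Of the 241 AE4 peaks of 2000 bp or more, 156 (64.7%) overlapped a wide H1foo domain. Conversely 161 wide domains (12.0%) carried such an AE4 peak, and of all autosomal H1foo peaks 0.266% did.

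The share of wide domains with AE4 overlap was higher on chromosome 8, with 503 of 550 wide domains (91.5%), against 603 of 789 (76.4%) on the other autosomes. Domains under 2500 bp alone gave 85.5% on chromosome 8 and 70.6% elsewhere, so the order was the same at like width. The share also lay higher for the other H1foo peaks, at 41.0% on chromosome 8 and 21.2% elsewhere. Within clusters of 3 or more, 87.8% of domains had an AE4 peak, against 74.95% of those alone or in pairs. Clustered domains were also wider, with a median of 2529 bp against 2328 bp, and the shares were not compared at like width. Off chromosome 8 the shares were 81.4% and 73.0%, with 0.533 and 0.442 AE4 peaks per kb. On chromosome 8 the shares were 92.2% and 87.0%, with 0.535 and 0.540 AE4 peaks per kb.

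The domains without AE4 were narrower, with a median of 2261 bp and a median score of 304, against 2500 bp and 405 for those with it, and 47 of the 233 lay on chromosome 8. The widest of them, chr8:20589318-20594279, measured 4962 bp and had the lowest score of all wide domains, 52.1. It lay with the next, chr8:20383821-20388609 of 4789 bp, in a block at 20 to 21 Mb of chromosome 8. In that block 23 of 41 H1foo peaks were wide (56.1%), and 20 of the 23 overlapped an AE4 peak (87.0%). Of the 23, 21 had no coding gene within 2 kb. Of the 16 wide domains with scores under 100, 9 were there. The placement of reads in this block was not tested. Others among the 10 widest without AE4 lay in Cilp2 (4268 bp, score 768), for a cartilage protein, and in Elfn1 (4071 bp, 725), for a synaptic adhesion protein. Another lay at Igfals (3955 bp, 606). Ssbp4, the small heat shock gene Hspb7, the zinc finger gene Casz1 and Jup, for plakoglobin of the cell junction, had domains of 3288 to 3465 bp without AE4. A domain with no AE4 peak is a domain with none in this list, which is not a measured absence.

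By their centre, 768 wide domains (57.4%) lay inside a protein-coding gene and more than 2 kb from its boundaries, against 53.7% of other H1foo peaks and 53.8% of all. Within 2 kb of a boundary lay 376 (28.1%), against 17.0% of others and 17.2% of all. Outside lay 195 (14.6%), against 29.3% of others and 29.1% of all. Wide domains thus had a larger share at boundaries and a smaller share outside genes. On chromosome 8 the boundary share was 26.9% and on the other autosomes 28.9%. The gene table gives no exons, so exons and introns could not be told apart.

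Start sites with their strand, from the RefSeq promoter table of 18 autosomes (not chromosome 18), let the boundaries be told apart. The table held start sites of 16457 of the 20665 autosomal protein-coding genes. Starts and ends of the remaining genes, on any autosome, were not counted, so the counts of sites held are partial. A wide domain held a start site in 98 of 1339 cases (7.32%, with the 5 domains of chromosome 18 counted as holding none), against 1.86% of all H1foo peaks counted alike, and a gene end in 137 (10.2%), against 1.28%. Both were present in 18. Long peaks hold more sites of any kind, so the same was read from the genes. Of 20085 start sites 109 (0.543%) lay under a wide domain, and 9.87% under any H1foo peak. Of 16457 gene ends 159 (0.966%) lay under a wide domain, and 8.08% under any H1foo peak. At the site itself, the share at ends was thus above that at starts for wide domains and below it for H1foo peaks of any width. Starts were counted by site, with more than 1 for some genes, and ends once per gene. Counted by gene, 99 of the 16457 had a start site under a wide domain. Other H1foo peaks covered 7.12% of ends and 9.33% of starts. At 0.5 kb inside the gene they covered 12.6% near ends and 10.5% near starts, so their order depends on the position read.

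Around gene ends the share of sites under wide domains was highest at 1.5 kb before the end, with 1.36%, or 2.22 times the mean of 0.613% at 15 to 20 kb away. Around starts it was lowest at 1 kb before the start, with 0.443%, against 0.678% at 15 to 20 kb, and highest 8 kb into the gene, with 0.901%. Other H1foo peaks also had a maximum before the end, with 12.8% at 1 kb before it. Unlike wide domains they had one just past the start as well, with 10.5% at 0.5 kb. AE4 coverage was lowest at 0.5 kb before the start, with 1.15%, and highest at 1 kb before the end, with 4.72%. These are coverages of 1 list each, with no error, and neighbouring genes share sites.

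**Figure D5:**
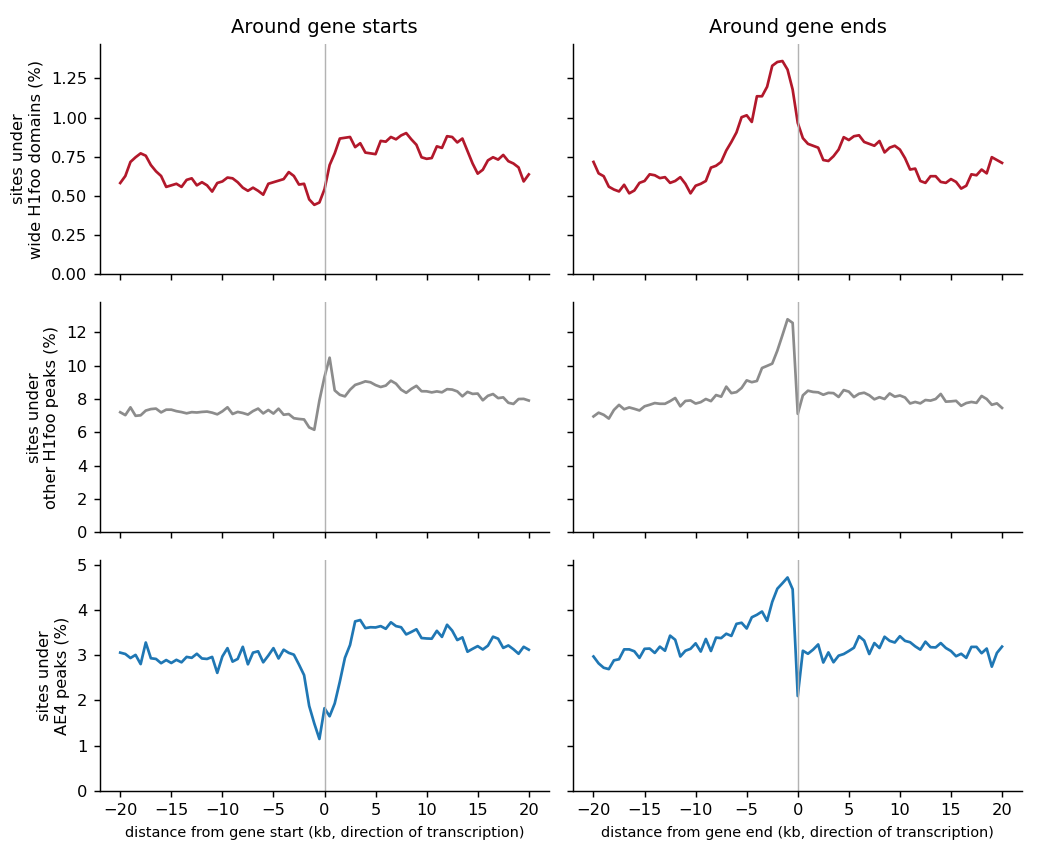
Percent of 20085 start sites (left, more than 1 for some genes) and 16457 gene ends (right) whose surrounding position lies under peaks. Shown are wide H1foo domains (red), other H1foo peaks (grey) and AE4 peaks (blue), against the distance in kb along the direction of transcription. Wide domains are most frequent 1.5 kb before gene ends, at 1.36%, and show no maximum at the start itself.

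Of 20665 autosomal protein-coding genes 955 had a wide domain in their span or within 2 kb of it, or 4.62%. A single domain was present at 701 of them, 2 at 163 and 3 or more at 91. On chromosome 8, 274 of 1043 genes had one (26.3%), against 681 of 19622 (3.47%) on the other autosomes. Genes with a domain had a median length of 16.0 kb and all genes one of 17.5 kb, so they were not the longer genes.

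After Gse1 the genes with the most domains were Nfix, for a transcription factor of the NFI family, with 10, and Piezo1, for a mechanically gated cation channel, with 9. On chromosome 5, 3110082I17Rik and Adap1 also had 9 each. Zfpm1, for a cofactor of GATA factors, had 8. Bcar1, Slc7a5, Cmip and Rfx1, for a transcription factor of the RFX family, had 7 each. Of these 10 genes, 8 lie on chromosome 8. The share of the gene under wide domains set them apart, from 73.1% of the 33.4 kb of Bcar1 and 62.9% of the 26.5 kb of Slc7a5 to 7.88% of the 204 kb of Cmip. For Nfix it was 36.3% and for Piezo1 43.5%. AE4 peaks lay on every one of the domains of Nfix, Piezo1, 3110082I17Rik, Adap1, Bcar1, Cmip and Rfx1, on 6 of 8 of Zfpm1 and on 6 of 7 of Slc7a5.

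At 117 genes wide domains covered at least 50% of the span, and 51 of these genes were on chromosome 8. Lying wholly inside a domain were 9, all short. They include Bglap, for the bone hormone osteocalcin, Acta1, for the actin of skeletal muscle, the interferon gene Ifnz, and Nrn1l, Fam187a and Myadml2. Tlr9, the receptor for unmethylated CG in foreign DNA, was covered to 99.8%, Pik3r2, for a regulatory subunit of phosphoinositide 3-kinase, to 98.5%, the melanocortin receptor gene Mc1r to 97.6% and Rab3a to 96.9%. Esrp2, a splicing factor gene, was covered to 91.9% and the purine salvage gene Aprt to 90.8%. The interferon and predicted genes belong to families that hold close copies, and the other genes were not checked for close copies. Apart from the interferon and predicted genes, these are genes of unlike function.

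Gene lists were read against the 4.62% of all genes. None of 27 naive pluripotency genes had a wide domain, though 22 had an H1foo peak of some width. None of 10 linker histone genes, 21 Notch genes, 39 Hox genes, 71 core histone genes, 58 Adam and Adamts genes or 1100 olfactory receptor genes had one. H1foo peaks of any width lay at 17 of the Notch genes and at 35 of the olfactory receptor genes, beside 12873 of all 20665 genes. Except for the olfactory receptors, 4.62% of lists of this size amounts to few genes, and an empty list is a count only.

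Among genes of chromatin, Dnmt3l and Mbd3 were the members with a domain out of 13 of DNA methylation. The Mbd3 domain of 2178 bp held the end of the gene, which encodes a subunit of the NuRD complex. Polycomb had 1 of 27, Pcgf2, with 2759 bp inside the gene. Of the H3K9 list 1 of 17 had one, the methyltransferase gene Ehmt2 (2496 bp, no AE4 peak). The methyltransferase gene Kmt2d was the 1 of 21 in its list (2166 bp, no AE4 peak). Among 26 remodelling genes were Gatad2a, of NuRD, with 4 domains, and Smarcb1, of the SWI/SNF complex, whose domain of 3105 bp held its end and that of Derl3. Apart from Gatad2a each had a single domain.

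Among developmental and signalling lists, Padi6 was the 1 of 19 oocyte genes, an enzyme gene needed for the early embryo, with 2103 bp at its end and no AE4 peak. Duxf3 was the 1 of 14 in the 2-cell list. Among imprinted genes, the neighbours Cd81 and Tssc4 shared a domain of 2003 bp inside Cd81, and were 2 of 32. Wnt genes had 2 of 43, the effector Tcf7 (2824 bp) and the ligand Wnt5b (2149 bp). The list of FGF and LIF had 2 of 32, the kinase gene Map2k2 (2557 bp, 2 AE4 peaks) and the ligand Fgf17 (2106 bp). Nodal and BMP genes had 1 of 36, Gdf1, whose domains lay beside the gene. Forkhead genes had 1 of 41, Foxk1, with 2 domains.

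Among structural and transport lists, collagens had 3 of 42. The Col18a1 domain of 4736 bp covered an internal start site, that of Col9a3 measured 2661 bp, and that of Col8a2 lay beside the gene. Solute carriers had 26 of 356 (7.30%), but 8 of these were among the 20 members on chromosome 8. The widest of them were in Slc7a5, Slc38a8 (4278 bp), the fatty acid transporter gene Slc27a1 (4115 bp) and Slc9a8 (3835 bp), for a sodium and proton exchanger. Potassium channels had 2 of 91, Kcnn1 with 6 domains and Kcng4 with 1. Zfp genes had 12 of 386, led by Zfp469 (5475 bp) and Zfp423 (3234 bp), keratins had 2 of 49, Krt17 and Krt42, and ribosomal protein genes 2 of 80, Rpl18 and Rpl10a, with the domain outside the gene at both.

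Clustered protocadherins stood at 21 of 57 (36.8%), and a single domain accounts for all 21. It measures 2473 bp, lies at chr18:37819417-37821889 and has a score of 420.3 and no AE4 peak. The 21 genes of the gamma group encode cell adhesion proteins of neurons, and their spans overlap because variable first exons are joined to shared constant ones. The count of 21 is therefore 1 observation.

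No coding gene lay within 2 kb of 181 wide domains (13.5%), of which 54 were on chromosome 8 and 29 on chromosome 6. The nearest coding gene was at a median of 15.6 kb. The most distant, chr12:109950708-109952894, lay 326 kb from Dio3, the gene of the enzyme that inactivates thyroid hormone, and had no AE4 peak. AE4 peaks overlapped 139 of the 181 (76.8%). A noncoding RefSeq gene was overlapped by 60 of them. Over all wide domains 113 of 12408 long noncoding RNA genes were overlapped by one (0.911%), 17 of 8884 pseudogenes (0.191%) and 0 of 1286 snoRNA genes. H1foo peaks of any width overlapped 33.1% of the long noncoding RNA genes, 11.1% of the pseudogenes and 5.21% of the snoRNA genes.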

How the data were processed

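ChIP-seq was made with 2 H1foo and 2 AE4 libraries; chromatin was digested enzymatically, per the labels' protocols. Reads were aligned with Bowtie 1.1.2 to mm10, per the submitters' processing notes, and peaks were called with MACS, per the file headers, with no version named. For each antibody the authors deposited 1 peak list, with a score per peak, used only to describe and rank peaks within a list. How libraries were pooled and whether an input was used are not stated in the labels, and lists hold no value per library, so all results are descriptions. Library depth is unknown, so precision per library cannot be given.

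Starts were counted from 1. Peaks of at least 2000 bp on autosomes were kept. Genes and sequences came from RefSeq tables of GRCm38.p6. The overlap was 1 bp, the boundary window 2 kb, and clusters joined gaps of up to 50 kb. Named were the 20 widest domains, the 20 with the most AE4 peaks, the 10 widest without AE4, the 10 largest clusters, the 10 genes with the most domains, up to 4 members per gene list and the 5 peaks on each side of the threshold. Genes covered by domains, miRNAs, the chr17 cluster and the Dio3 domain were chosen after their values were seen. Members and lists were chosen with earlier results of these data known. Python 3.11.15, pandas 2.3.3, numpy 2.4.6 and scipy 1.17.1 were used, and the overlap and cluster steps were tested on simulated data.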

Additional observations from a re-analysis of the deposited data

Results flagged for a closer look

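Outside the autosomes, which the domains above were limited to, 6 H1foo peaks measured 2000 bp or more, and each overlapped at least 1 AE4 peak. They drew attention because they lie in data that no comparison used. On chromosome X were 3 of them, among 164 H1foo peaks there. chrX:135051460-135054955 measured 3496 bp with a score of 406 and 2 AE4 peaks, and chrX:170735320-170737345 and chrX:170810519-170812735 measured 2026 and 2217 bp with 1 AE4 peak each. The other 3 were on an unplaced scaffold, and 1 of those was 31062 bp wide, beyond the 9887 bp of the widest autosomal domain. Chromosome Y had 14 H1foo peaks, none of them wide. The placement of reads on the scaffold was not tested.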

How the results depend on the processing

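Of 27 alternatives 7 stayed within the main value's counting interval, or within 1.5 times a count, and 20 moved; none has a test. With a minimum width of 1500 bp there were 3511 domains, of which 70.7% had an AE4 peak, 32.0% lay on chromosome 8 and 69.5% in clusters. With 3000 bp there were 301, with 95.7%, 57.1% and 48.8%. Domains at or above the median score numbered 670, with 93.3% on AE4 and 54.5% in clusters. Joining H1foo peaks with gaps of at most 500 bp gave 5538 domains, so their number rests on how the caller splits peaks. The AE4 share was 73.7% with AE4 peaks at or above their median score, 58.8% in the middle 200 bp and 76.4% without chromosome 8, when 40.9% of the remaining domains lay in clusters. The boundary share was 13.2% with a window of 1 kb and 51.5% with 5 kb, and the clustered share 47.4% with a gap of 20 kb and 66.9% with 100 kb. The 7 that did not move were the boundary share at both widths, in the upper scores and without chromosome 8 (26.0 to 28.9%), the chromosome 8 share in the upper scores (43.4%), and the AE4 share with the AE4 centre or at least 50% of the AE4 peak inside (81.6% for both). No paired analysis was possible because the lists hold no value per library, and leaving out a library could not be run for the same reason. Depth is unknown, so an absent peak is not an absent protein.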

Other observations

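Among the 391 genes of at least 20 kb with a wide domain, those covered most after Bcar1 lay mainly on chromosome 8. Kcnn1, for a calcium-activated potassium channel, was covered to 64.8% by its domains, ahead of Slc7a5 at 62.9%, Klhl26 to 56.9%, the amino acid transporter gene Slc38a8 to 53.2%. Ints1, for a subunit of the Integrator complex, on chromosome 5, was covered to 50.1%. Mast3 followed with 48.8%, Gse1 with 48.4% of its 353 kb, and Pde4c, for an enzyme that degrades cyclic AMP, with 46.7%. Among shorter genes Iqcn was covered to 85.2%, Podnl1 to 80.6% and the atrial myosin gene Myl7 to 84.7%. These genes were chosen after their values were seen.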
